A study of Mus musculus with 19 samples.

Results

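The SVX set consists of 4 endometrial RNA-seq libraries, out of 19 libraries in 5 groups. They were chosen by the prefix of their count columns, SVX 1 to SVX 4, leaving out the columns whose prefix is SVX_VAS, and were compared with the 3 libraries of estrous females, whose columns carry the prefix CONT and the numbers 1, 2 and 4. All of these libraries came from wild-type (WT) females of the C57Bl/6 strain. The females of the SVX set had been mated with Balb/c males, and their endometrium was taken 3.5 days after mating. The titles and the column prefixes name different operations on the males of this set, so it is called by its prefix alone and no surgery is assigned to it. The 4 intact-mated libraries, from females mated with unoperated Balb/c males and collected on the same day after mating, were used as a second reference. The estrous females were not mated and received no treatment. The methods of the study describe the estrous and intact-mated groups. There, mated females were 8 to 14 weeks old. Their tissue was taken at noon, and estrous tissue late in the evening, around ovulation. The hour for the SVX set is not given there. Where it was also noon, time of day cannot be told apart from the group in comparisons with estrus. The endometrium was scraped from the muscle layer of the uterus. The results section of the study calls the samples of these groups pooled. The number of animals in a pool is not given in the sources used here. Where libraries are pools, their spread is one between pools. Whether the SVX libraries were pooled is not stated in the sources used here. The p-values measure only the spread between libraries.

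The endometrium is the inner lining of the uterus, made of a luminal epithelium, glands, stroma, vessels and immune cells. Around ovulation it is under estrogen, which drives epithelial growth and a strong secretory program of antimicrobial and mucus proteins. After mating, the corpora lutea release progesterone, the epithelium stops dividing, and the epithelial hedgehog ligand Ihh signals to the stroma through the receptor Ptch1 and the Gli transcription factors. In mice, a small rise in estrogen then induces the cytokine LIF in the glands, and the endometrium becomes receptive to the embryo for a short time. Seminal fluid also acts on the female tract, where it is known to induce cytokines soon after mating.

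The SVX libraries held between 12661266 and 13799614 counts on genes, and the estrus libraries between 15487788 and 31781270. Levels are given as CPM, the count scaled to the TMM-normalised size of the library. Where no count was seen, up to 3 are possible, or 0.215 to 0.236 CPM in an SVX library and 0.108 to 0.2275 CPM in an estrus library, from counting error alone. No pair of SVX libraries agreed within counting error (chi-square per degree of freedom of 3.486 to 16.68 over the pairs), so each was counted as a separate sample. SVX 1 stood apart from the other SVX libraries in many genes, as described towards the end. Among 274 called genes of the lists, of the largest changes and of the largest SD, the fold-change of 22 moved by over 1.5 times without SVX 1. The log2 fold-change (logFC) without it stands beside those described here, except for genes with 3 or fewer SVX counts. Libraries 2 and 3 of the VAS group stood apart from all others, with 1.839% and 1.825% of counts in their 20 most abundant genes against 6.253% to 7.462% in the SVX libraries. They enter the comparison through the minimum level, the scaling and the shared estimate of spread, and without them 7926 genes were called. Epithelial, stromal and endothelial markers were present in every SVX library (Epcam 87.6 to 135 CPM, Pdgfra 646 to 778 CPM, Pecam1 190.5 to 224 CPM). None of 8 sperm transcripts and none of 4 Y-linked genes reached 3 CPM in 3 libraries.

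Of 49089 genes, 17222 (35.1%) reached 3 CPM in at least 3 of the 19 libraries and were tested. In the SVX set, 3985 genes were higher and 3178 lower than at estrus, at a false discovery rate (FDR) of 0.05 or less and a log2 fold-change (logFC) of at least 0.58 in size. These 7163 genes made up 41.6% of all genes tested, with 23.1% higher and 18.5% lower, so that a share of this size is the background for every gene list below. The median logFC was 1.40 among the higher genes, -1.19 among the lower genes and -0.01 over all genes tested. Changes beyond 4-fold were found in 1039 higher and 799 lower genes, and beyond 16-fold in 165 higher and 206 lower genes. The SVX and estrus libraries did not overlap in 7072 of the called genes, and in 70.9% of all genes tested. All logFC values below are given ± standard error from the edgeR fit, and levels are CPM in the order of the library numbers.

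A principal component analysis of the 7 libraries placed 91.7% of the variance on PC1. The estrus libraries had PC1 scores of -115.3, -89.88 and -95.3, and the SVX libraries scores of 54.07, 81.52, 83.63 and 81.23. On PC1 the scores of both groups lay apart, with a two-sided p of 0.0571 in an exact permutation test, which cannot give less with 35 splits of 3 and 4 libraries. PC2 held 3.009% and set SVX 1 (-36.68) apart from the other SVX libraries (4.94 to 14.62).

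**Figure D1:**
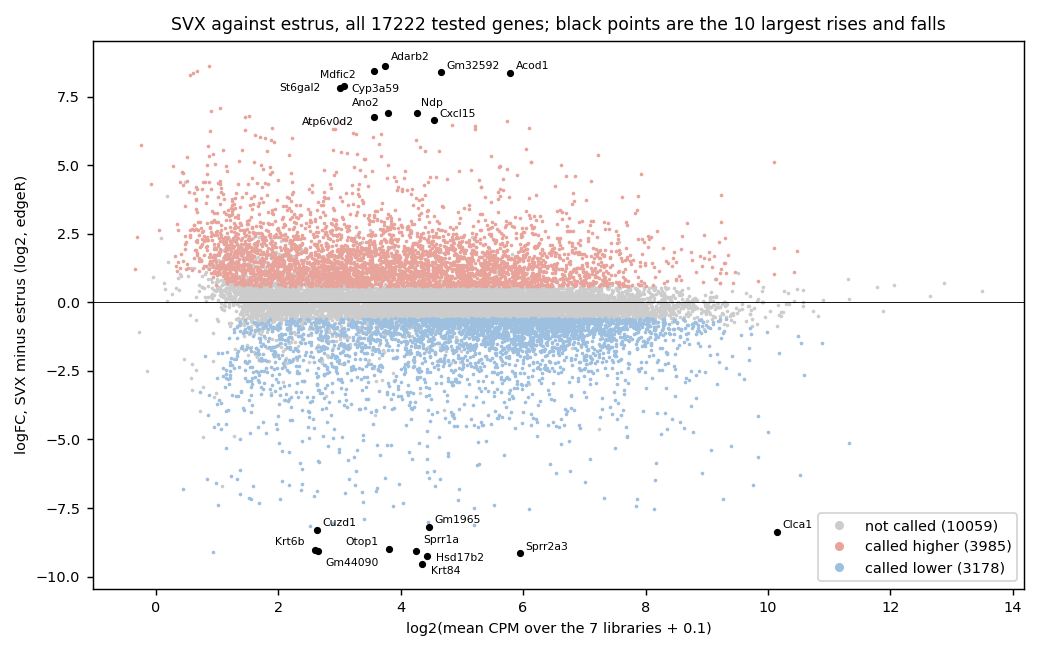
LogFC of SVX minus estrus for the 17222 tested genes against their mean level, log2(CPM + 0.1), with genes called higher (3985) in red, called lower (3178) in blue and not called in grey. The 20 named points are the 10 largest rises and 10 largest falls, which reach 8.64 (Adarb2) and -9.53 (Krt84).

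The largest rises were in genes that were near the counting limit at estrus. Acod1, the enzyme that makes itaconate (chr14:103046977-103056573 in GRCm38), was at 0.178, 0.215 and 0.531 CPM at estrus and at 79.4, 91.1, 107 and 108 CPM in the SVX libraries (logFC 8.38 ± 0.88, FDR 2.2e-06). Ndp, which encodes the secreted Wnt receptor ligand norrin (chrX:16885521-16911774), was at 0.178, 0.359 and 0.227 CPM and then at 21.03, 40.4, 34.8 and 37.3 CPM (logFC 6.92 ± 0.51, FDR 3.1e-07). Each SVX library thus exceeded each estrus library for both genes by a wide margin. Adarb2, an RNA-editing enzyme family member (chr13:8202866-8768747), had 3 counts in all estrus libraries together and 10.1, 31.6, 26.8 and 24.7 CPM in the SVX libraries, a ratio of 451 (95% counting interval 154 to 2191). Its level in SVX 1 was the lowest of the 4. Mdfic2, with a MyoD inhibitor domain, had 3 counts at estrus and 17.4, 22.3, 23.6 and 18.8 CPM in the SVX libraries, a ratio of 396 (95% counting interval 135 to 1925). The predicted gene Gm32592 was at 0.119, 0.0718 and 0.227 CPM and 35.4, 53.8, 43.4 and 43.6 CPM (logFC 8.39 ± 0.54, FDR 3.1e-07). Mdfic2 (chr6:98235708-98342754, minus strand) and Gm32592 (chr6:98121796-98248611, plus strand) overlap each other on opposite strands, so that their reads may not be told apart, and whether strand was used in counting is not given in the sources used here.

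The sialyltransferase gene St6gal2 had 3 counts at estrus and 9.66 to 18.9 CPM in the SVX libraries, a ratio of 268 (95% counting interval 91.4 to 1303). Cyp3a59, a cytochrome P450 gene with close paralogs between which reads can be split, also had 3 counts at estrus, and the ratio was 281 (95% counting interval 95.8 to 1366). The calcium-activated chloride channel gene Ano2 was at 0.152 to 0.238 CPM at estrus and at 16.04 to 36.5 CPM in the SVX libraries (logFC 6.92 ± 0.95, FDR 1.7e-05). The chemokine gene Cxcl15 and the proton pump subunit gene Atp6v0d2 are described with the glands and with the variable genes. The calls of Acod1, Adarb2, St6gal2, Ano2 and Atp6v0d2 were lost with limma-voom (FDR of 0.0754, 0.136, 0.0861, 0.186 and 0.408), and 6 of the study's 10 higher genes named below kept it.

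Among the largest falls were keratin genes and genes of the cornified envelope, chosen like the rises for groups that do not overlap. Krt84, a hair keratin gene (chr15:101525026-101532820), had 2818 counts in the estrus libraries and 3 in all SVX libraries, an estrus to SVX ratio of 863 (95% counting interval 295 to 4189). Hsd17b2, whose enzyme oxidizes estradiol to estrone (chr8:117701904-117759027), was at 46.4, 54.2 and 49.2 CPM at estrus and had 4 counts in all SVX libraries (logFC -9.24 ± 2.79, FDR 0.0088). DESeq2 gave no adjusted p for Hsd17b2, and its call was lost with limma-voom and TREAT (0.0757). Clca1, a secreted regulator of chloride channels and mucus (chr3:145003817-145032776), was at 2136, 3060.4 and 2681 CPM at estrus and at 26.9, 1.97, 1.97 and 1.22 CPM in the SVX libraries (logFC -8.36 ± 2.63, FDR 0.0125). SVX 1 was the highest of the 4 SVX libraries for Clca1, and was still far below the lowest estrus library, and its logFC without SVX 1 was -10.57. The cornified envelope genes Sprr2a3 (logFC -9.15 ± 2.56, FDR 0.00582, -9.84 without SVX 1) and Sprr1a (logFC -9.05 ± 2.26, FDR 0.00246, -10.42 without SVX 1) fell by a similar factor, and members of the Sprr family are similar enough in sequence for reads to be split between them. Krt6b, an epidermal keratin gene, had 858 counts at estrus and 1 in the SVX set, a ratio of 789 (95% counting interval 141 to 31184). For the proton channel gene Otop1 the counts were 1918 and 3, with a ratio of 588 (95% counting interval 201 to 2852). The predicted genes Gm44090 (797 against 1 counts) and Gm1965 (3010 against 9 counts) and the zona pellucida-like domain gene Cuzd1 (908 against 2 counts) complete the list. The calls of Clca1, Sprr2a3 and Sprr1a were lost with limma-voom (FDR of 0.182, 0.164 and 0.0769), that of Krt6b, for which DESeq2 also gave no adjusted p, without SVX 1 (0.0519), and that of Cuzd1 without any of the 4 SVX libraries (0.0705 to 0.072), without estrus 2 (0.0547) and with glmTreat (0.0572). DESeq2 gave no adjusted p for Cuzd1 either.

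The study's own leading genes also separated the groups. Of 12 such genes, 10 were higher and 2 lower in the SVX set, with a median logFC of 7.41. They were chosen by the study with the same estrus libraries, so this count is not independent evidence of their direction. Beside the genes above, Ttr, the thyroid hormone carrier transthyretin, had 2 counts at estrus and 4.83, 4.25, 5.705 and 4.44 CPM in the SVX libraries, a ratio of 139 (95% counting interval 38.2 to 1156). Epha8, an ephrin receptor gene, had 1 count at estrus, and the ratio was 178 (95% counting interval 31.6 to 7090.1). Both fell outside the largest rises because their SVX level was below 10 CPM. The 2 lower genes were the membrane protease gene Adam33 (47.2, 42.8 and 43.1 CPM at estrus, 5.22, 4.797, 4.75 and 5.803 CPM in the SVX libraries, logFC -3.11 ± 0.29, FDR 1.1e-06) and Aspg, a lysophospholipase and asparaginase gene (logFC -2.29 ± 0.25, FDR 3.2e-06). For Adam33 and Aspg the groups did not overlap.

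**Figure D2:**
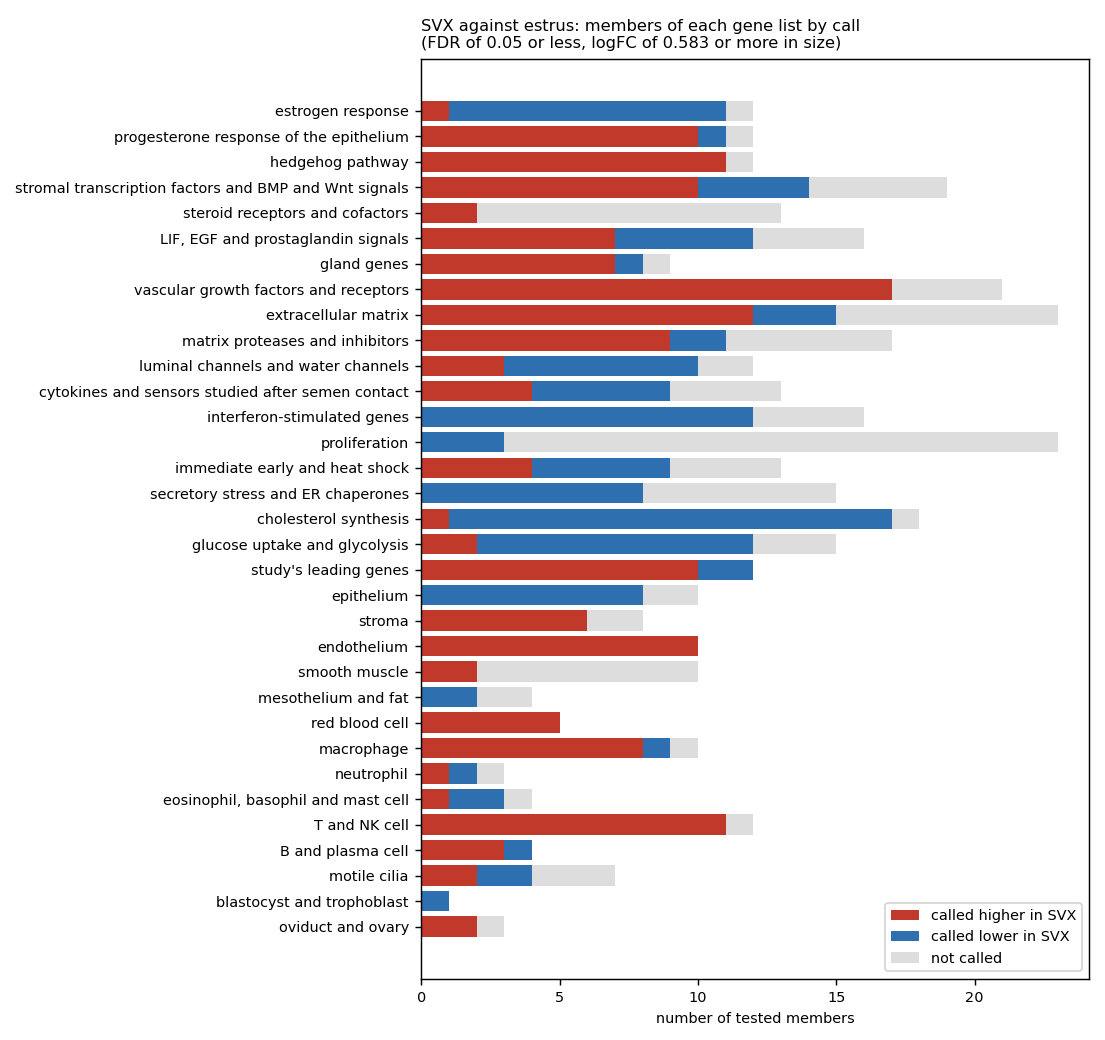
Number of tested members of each gene list that were called higher in the SVX libraries (red), called lower (blue) or not called (grey) against estrus. All 10 endothelial markers were called higher and 16 of 18 cholesterol synthesis genes lower, while 3 of 23 proliferation genes were called.

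Genes of the estrogen response fell. Of 12 tested members, 10 were lower and 1 was higher, and the median logFC was -4.92. C3, complement component 3, was at 5013, 6612 and 5692 CPM at estrus and at 187, 159, 145 and 176 CPM in the SVX libraries (logFC -5.11 ± 1.29, FDR 0.00287). Muc1, a mucin of the luminal surface, was at 430.1, 417 and 425 CPM and 40.9, 23.8, 20.99 and 25.6 CPM (logFC -3.93 ± 0.86, FDR 0.00104). In both genes every SVX library was several-fold below every estrus library. Ltf, the iron-binding antimicrobial protein lactoferrin, was at 1875, 2848 and 2088 CPM at estrus and at 273, 33.03, 20.04 and 15.5 CPM in the SVX libraries (logFC -4.73 ± 1.77, FDR 0.0307). SVX 1 was far above the other SVX libraries for Ltf. The same held for Lcn2, the siderophore-binding lipocalin, at 1371, 1407 and 1503 CPM and 30.2, 2.52, 2.78 and 4.51 CPM (logFC -7.16 ± 2.26, FDR 0.0126), and for Greb1, a classical estrogen receptor target, at 433, 374 and 433 CPM and 95.7, 21.3, 20.5 and 26.6 CPM (logFC -3.33 ± 0.79, FDR 0.00185).

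The mucin Muc4 (logFC -6.65 ± 2.06, FDR 0.0113), the arginine deiminase Padi1 (logFC -6.29 ± 1.71, FDR 0.00481), Sprr2f (logFC -5.86 ± 1.83, FDR 0.0119) and the cell cycle inhibitor Cdkn1a (logFC -1.72 ± 0.55, FDR 0.0132) were also lower. The member that rose was Igf1, a growth factor that is largely stromal in the uterus, from 101, 156 and 119.7 CPM to 811, 1009, 1008 and 990.2 CPM (logFC 2.92 ± 0.32, FDR 3.4e-06). Pgr, the progesterone receptor, overlapped between the groups (379 to 473 CPM at estrus and 405 to 536 CPM in the SVX libraries, logFC 0.13 ± 0.28, FDR 0.722). Without SVX 1 the logFC was -6.63 for Ltf, -8.76 for Lcn2, -4.18 for Greb1, -7.89 for Muc4, -7.03 for Padi1 and -7.54 for Sprr2f. With limma-voom, 5 members stayed lower, and Ltf, Lcn2, Muc4, Padi1 and Clca1 lost the call. Ltf also lost it without SVX 2, 3 or 4 and without estrus 2. The epithelial markers fell over the same libraries (given below), and their part in these falls was not tested. In bulk tissue, fewer cells of a type and less RNA per cell cannot be told apart.

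**Figure D3:**
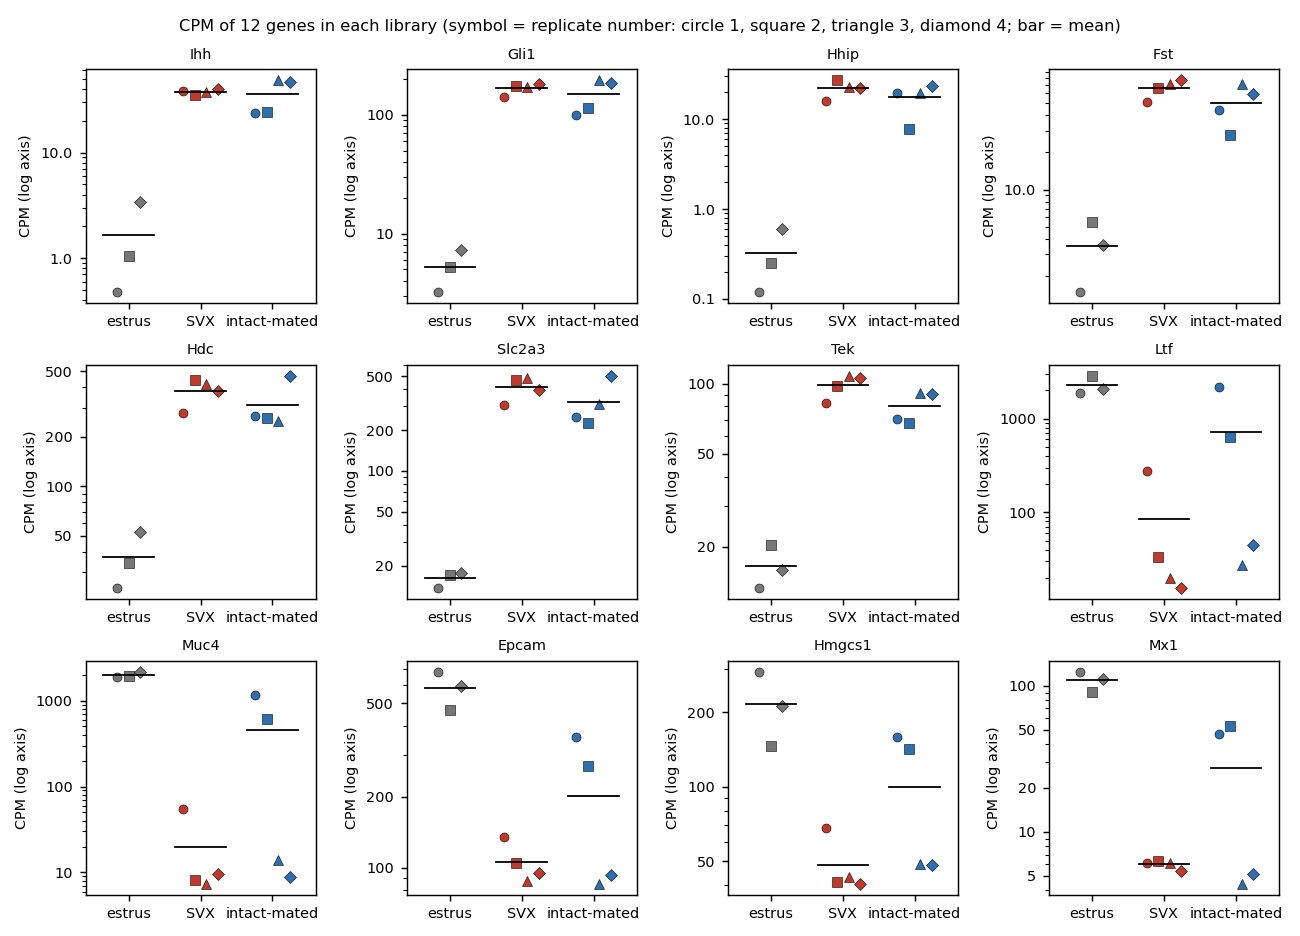
CPM (log axis) of 12 genes in each estrus, SVX and intact-mated library, with the symbol giving the replicate number and the bar the group mean. The SVX and estrus libraries do not overlap in any panel, SVX 1 is the highest SVX library for Ltf (273 CPM) and Muc4 (54.4 CPM), and intact-mated libraries 1 and 2 lie above every SVX library for Ltf, Muc4, Epcam, Hmgcs1 and Mx1 (2157 and 643 CPM for Ltf).

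Genes that progesterone induces in the epithelium rose. Of 12 tested members, 10 were higher and 1 lower, and the median logFC was 3.79. Ihh, the hedgehog ligand of the epithelium, was at 0.476, 1.04 and 3.41 CPM at estrus and at 38.01, 35.5, 37.2 and 39.98 CPM in the SVX libraries (logFC 4.59 ± 0.51, FDR 3.4e-06). Hdc, the enzyme that makes histamine, was at 23.96, 33.9 and 52.6 CPM and 279.7, 444, 417 and 381 CPM (logFC 3.37 ± 0.38, FDR 4e-06). Fst, the activin antagonist follistatin, was at 1.49, 5.53 and 3.56 CPM and 50.9, 65.98, 71.4 and 77.02 CPM (logFC 4.20 ± 0.45, FDR 2.5e-06). The SVX libraries lay close together for all 3 genes, with SVX 1 the lowest for Hdc and Fst. Areg, an EGF family ligand, was at 0.108 to 0.238 CPM and 4.08 to 7.75 CPM (logFC 5.03 ± 0.69, FDR 1.6e-05), and the decoy receptor gene Il13ra2 was at 5.47 to 11.1 CPM and 34.03 to 50.2 CPM (logFC 2.51 ± 0.40, FDR 6.5e-05). Calca, which encodes calcitonin, rose from 4 counts in all estrus libraries together to 4.299 to 6.13 CPM (logFC 6.11 ± 0.93, FDR 3.9e-05).

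The rises of the lipoxygenase Alox15 (logFC 0.71 ± 0.26, FDR 0.0264) and of the prostaglandin synthase Ptgs1 (logFC 0.63 ± 0.17, FDR 0.00427) were small, and Ptgs1 lost the call without estrus 1 and Alox15 without SVX 2 or 4 and without estrus 1 or 4. Cyp26a1, which degrades retinoic acid, was higher in the fit (logFC 5.66 ± 1.76, FDR 0.0114), with 73.9, 4.404, 2.71 and 55.1 CPM in the SVX libraries against 0.359 to 1.36 CPM at estrus. SVX 1 and 4 were more than 10 times as high as SVX 2 and 3 for this gene, and its logFC without SVX 1 was 4.94. Gpx3, a secreted glutathione peroxidase, was lower (logFC -1.34 ± 0.40, FDR 0.00924, call lost without estrus 2), and the transcription factor gene Gata2 overlapped (logFC 0.13 ± 0.15, FDR 0.476). Acod1, Calca and Cyp26a1 lost the call with limma-voom.

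The hedgehog pathway rose in nearly all of its members. Of 12 tested members, 11 were higher and none lower, and the median logFC was 1.73. The receptor Ptch1, which is also a target of the pathway, was at 66.8, 78.98 and 76.1 CPM at estrus and at 389.7, 486, 449 and 495 CPM in the SVX libraries (logFC 2.62 ± 0.31, FDR 5.5e-06). The transcription factor gene Gli1, itself a target of the pathway, was at 3.21, 5.24 and 7.28 CPM and 142, 174, 173 and 181 CPM (logFC 5.004 ± 0.35, FDR 3.1e-07). Hhip, the secreted inhibitor that binds hedgehog ligands, was at 0.119, 0.251 and 0.607 CPM and 16.04, 27.4, 22.7 and 22.1 CPM (logFC 6.14 ± 0.66, FDR 2.4e-06). No SVX library came near an estrus library for these targets. The signal transducer Smo (0.67 ± 0.15), the transcription factors Gli2 (1.36 ± 0.21) and Gli3 (2.10 ± 0.23), the inhibitor Sufu (1.02 ± 0.16) and the co-receptors Gas1 (1.16 ± 0.27) and Boc (1.21 ± 0.22) rose less on the logFC scale, and the co-receptor gene Cdon stayed under the logFC cutoff (logFC 0.54 ± 0.10, FDR 0.00031). Exons of Gli1, Gli3 and Hhip overlap a gene on the opposite strand. In the intact-mated libraries against the same, shared estrus libraries, 11 members were higher (median logFC 1.59), where 20.9% of all 17222 tested genes were called higher and 12.7% lower.

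**Figure D4:**
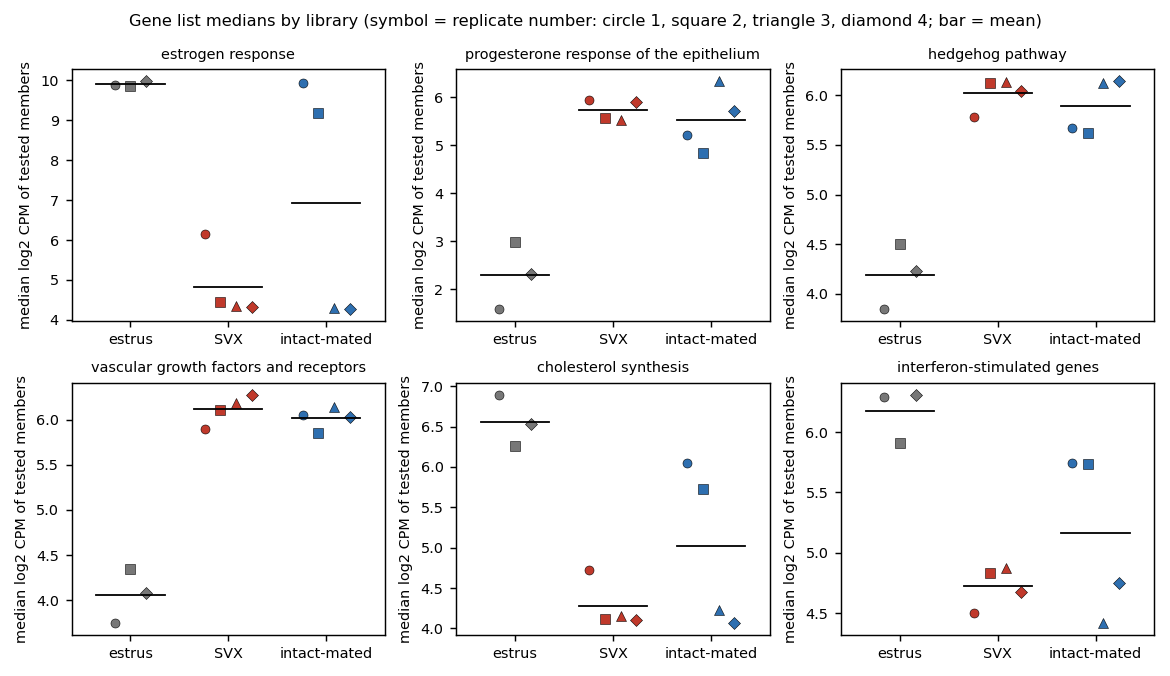
Median log2 CPM over the tested members of 6 gene lists in each library, with the symbol giving the replicate number and the bar the group mean. SVX and estrus do not overlap in any of the 6, and SVX 1 is the highest SVX library for the estrogen response (6.16) and cholesterol synthesis (4.72).

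Stromal transcription factors and BMP and Wnt signals moved in both directions. In this list, 10 of 19 tested members were higher and 4 lower (median logFC 1.12). Hoxa10 was at 23.3, 42.8 and 32.6 CPM at estrus and at 208, 252, 283 and 271 CPM in the SVX libraries (logFC 2.94 ± 0.32, FDR 3.2e-06), and Hoxa11 at 19.9 to 38.2 and 189 to 241 CPM (logFC 2.97 ± 0.34, FDR 4.7e-06). Both are needed for implantation in mice, and Hoxd10 rose by a like amount (logFC 2.81 ± 0.25, FDR 9.9e-07). Hand2, a stromal progesterone target that restrains epithelial growth, rose (logFC 2.51 ± 0.40, FDR 6.1e-05), as did the stromal hedgehog target Nr2f2 (logFC 1.35 ± 0.21, FDR 6.9e-05). Wnt11 was the list's largest rise (0.238, 0.682 and 1.52 CPM, then 29.98, 40.3, 37.96 and 36.3 CPM, logFC 5.53 ± 0.58, FDR 2.2e-06), and Bmp7 (logFC 1.73 ± 0.22, FDR 1.1e-05) and Twist2 (logFC 2.18 ± 0.23, FDR 2.3e-06) also rose. Wnt4 (logFC -2.17 ± 0.56, FDR 0.00325), Cebpb (logFC -1.75 ± 0.35, FDR 0.00045), Bmpr1a (logFC -0.86 ± 0.17, FDR 0.00044) and Msx2 (logFC -1.54 ± 0.60, FDR 0.0371) were lower. Bmp2, which marks decidualizing stroma at the embryo, overlapped (5.53 to 9.37 and 4.33 to 12.1 CPM, logFC -0.02 ± 0.41, FDR 0.978). The logFC of Msx2 was -2.15 without SVX 1, and its call was lost when any library other than SVX 1 and estrus 2 was left out and with upper quartile scaling.

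The steroid receptors themselves moved little. Of 13 tested receptors and cofactors, 2 were higher and none lower (median logFC 0.25). One of them was the mineralocorticoid receptor gene Nr3c2, at 5.83, 9.26 and 5.23 CPM at estrus and 9.89, 11.7, 11.99 and 11.96 CPM in the SVX libraries (logFC 0.74 ± 0.20, FDR 0.0047). The estrogen receptor gene Esr1 was at 971, 910.5 and 1071 CPM and 749, 743, 728 and 701 CPM (logFC -0.43 ± 0.25, FDR 0.156), so that the libraries did not overlap while the change passed neither cutoff. The progesterone receptor chaperone Fkbp4 gave logFC -0.60 ± 0.30, FDR 0.103.

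Signals of the LIF, EGF and prostaglandin pathways moved in both directions, with 7 of 16 tested members higher and 5 lower. Lif, the cytokine required for implantation in mice, was at 54.8, 41.6 and 56.03 CPM at estrus and at 9.35, 15.6, 22.4 and 21.8 CPM in the SVX libraries (logFC -1.56 ± 0.59, FDR 0.0333). Its receptor Lifr was also lower (351 to 429 and 103 to 177 CPM, logFC -1.58 ± 0.21, FDR 1.2e-05), while the shared co-receptor Il6st gave logFC 0.34 ± 0.28, FDR 0.323. The call of Lif was lost without SVX 1 or 2, without estrus 1 or 4 and with upper quartile scaling. Among EGF receptors, Egfr rose (logFC 0.79 ± 0.19, FDR 0.00192) and Erbb2 (logFC -1.83 ± 0.24, FDR 1.4e-05) and Erbb3 (logFC -2.17 ± 0.36, FDR 9.9e-05) fell. The heparin-binding EGF-like ligand Hbegf fell (logFC -1.48 ± 0.35, FDR 0.00181). The lysophosphatidic acid receptor Lpar3, which is needed for on-time implantation, rose from 12.7, 10.02 and 10.9 CPM to 27.2, 50.9, 50.7 and 43.6 CPM (logFC 1.94 ± 0.30, FDR 5.3e-05), and the prostaglandin E synthase Ptges rose (logFC 0.96 ± 0.20, FDR 0.0006). Ptgs2 overlapped between the groups (logFC -1.04 ± 1.29, FDR 0.526).

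Gland genes rose, and some of them varied widely among the SVX libraries. Of 9 tested members, 7 were higher and 1 lower (median logFC 3.37). Foxa2, the transcription factor of uterine glands, was at 2.97, 5.06 and 2.73 CPM at estrus and at 20.6, 16.4, 15.5 and 13.7 CPM in the SVX libraries (logFC 2.19 ± 0.35, FDR 6.7e-05). Cxcl15 was at 0.119, 0.144 and 1.14 CPM and 44.003, 46.2, 38.7 and 31.6 CPM (logFC 6.64 ± 0.52, FDR 4.9e-07), and Spink1, a secreted trypsin inhibitor, was at 0.476, 1.72 and 0.303 CPM and 109.8, 75.6, 70.1 and 114 CPM (logFC 6.61 ± 0.82, FDR 8.2e-06). The groups were far apart for these 3 genes. The neighbouring implantation serine protease genes Prss28 and Prss29 behaved otherwise. Prss28 was at 0.297, 1.51 and 0.152 CPM at estrus and at 139, 8.1002, 4.46 and 106 CPM in the SVX libraries (logFC 6.43 ± 1.91, FDR 0.00862), and Prss29 was at 0.773, 7.61 and 1.44 CPM and 211, 15.96, 9.22 and 245 CPM (logFC 5.11 ± 1.76, FDR 0.0205). SVX 1 and 4 were more than 10 times as high as SVX 2 and 3 in both, and estrus 2 came close to SVX 3 for Prss29. Without SVX 1 the logFC of Prss28 was 5.75. Both proteases lost the call with limma-voom, and Prss29 also lost it without estrus 1 or 4. Wfdc3 (logFC 3.37 ± 0.36, FDR 2.8e-06) and Sox17 (logFC 0.60 ± 0.22, FDR 0.0295) rose, and the prolactin receptor gene Prlr fell (logFC -1.43 ± 0.33, FDR 0.00157). Spink1 was also higher in SVX 1 and 4 than in SVX 2 and 3, by a smaller factor, while SVX 4 was the lowest of the 4 for Foxa2 and Cxcl15. The remaining member, Aldh1a1, which makes retinoic acid, was at 50.5, 8.57, 7.39 and 6.81 CPM in the SVX libraries against 19.7 to 24.2 CPM at estrus (logFC -0.26 ± 0.71, FDR 0.786). SVX 1 alone lay above the estrus range for it, and without SVX 1 it was lower (-1.53, FDR of 0.0352), so that 2 members were lower in place of 1. The call of Sox17 was lost without SVX 2 or 3 and without estrus 1 or 2.

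The promoters of Prss28, Prss29 and Cxcl15 each hold the letters of a TATA box, the element that places the start of many strongly regulated genes. The 200 bases before the start of 3 genes are shown because these genes rose in common from a very low level while the protease genes split the SVX libraries. They were taken from the RefSeq annotation of GRCm38.p6, in the direction of the gene, with TATAAA in capitals, at chr17:25308446-25308645, chr17:25318454-25318653 and chr5:90794334-90794533, all on the plus strand.
Prss28: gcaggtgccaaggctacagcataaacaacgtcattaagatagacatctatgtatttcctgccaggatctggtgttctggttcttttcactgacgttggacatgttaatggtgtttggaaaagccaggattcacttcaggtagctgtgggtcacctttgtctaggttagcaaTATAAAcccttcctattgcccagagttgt
Prss29: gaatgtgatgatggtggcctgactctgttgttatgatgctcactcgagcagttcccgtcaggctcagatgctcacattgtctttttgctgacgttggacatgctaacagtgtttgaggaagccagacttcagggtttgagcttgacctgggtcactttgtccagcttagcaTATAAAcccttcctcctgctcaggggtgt
Cxcl15: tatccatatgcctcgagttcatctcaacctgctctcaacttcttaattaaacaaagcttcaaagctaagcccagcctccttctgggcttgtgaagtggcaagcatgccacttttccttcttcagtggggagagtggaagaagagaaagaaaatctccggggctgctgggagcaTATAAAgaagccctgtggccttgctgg
TATAAA lay 29 to 24 bases before the start in Prss28 and Prss29 and 27 to 22 bases before it in Cxcl15. It was found on the gene's strand in 3 of the 7 gland genes with an entry and in 6.27% of all 32851 promoters of this length. Prss28 and Prss29 were identical at 73 of the 200 positions (36.5%) when aligned at the start without gaps. An inserted or lost base puts all bases before it out of register, so this share can understate how alike they are. No alignment with gaps was made. A match is a description of the letters in this window.

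Most vascular genes rose. Of 21 tested growth factors and receptors, 17 were higher and none lower (median logFC 1.71). Among ligands, Angpt1, which activates the receptor Tek, was at 0.892, 0.826 and 1.44 CPM at estrus and at 11.8, 15.1, 13.5 and 13.1 CPM in the SVX libraries (logFC 3.68 ± 0.36, FDR 1.5e-06). Placental growth factor, Pgf (logFC 3.12 ± 0.43, FDR 1.9e-05), and apelin, Apln (logFC 3.19 ± 0.46, FDR 2.9e-05), also rose, while the principal VEGF ligand gene Vegfa overlapped (103 to 130.5 and 113 to 162 CPM, logFC 0.18 ± 0.19, FDR 0.449). Among receptors, Tek was at 13.3, 20.2 and 15.8 CPM and 83.02, 98.3, 108 and 106 CPM (logFC 2.58 ± 0.25, FDR 1.4e-06), and the VEGF receptor Kdr was at 33.5, 47.9 and 36.999 CPM and 175, 182, 182 and 179 CPM (logFC 2.18 ± 0.17, FDR 5.2e-07). The SVX libraries agreed closely for Kdr. The endothelin receptor Ednrb was the list's largest rise (5.71, 11.6 and 6.82 CPM, then 96.9, 118, 124 and 113 CPM, logFC 3.79 ± 0.37, FDR 1.6e-06). The ligands Angpt2 (logFC 0.40 ± 0.22, FDR 0.138) and Edn1 (logFC -0.47 ± 0.33, FDR 0.237) and the receptor Acvrl1 (logFC -0.12 ± 0.12, FDR 0.388) did not pass the test. All 10 endothelial markers were higher too, with summed levels of 249 to 342 CPM at estrus and 1021 to 1331 CPM in the SVX libraries, and their part in the rise of the vascular genes was not tested.

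Of 23 tested matrix genes, 12 were higher and 3 lower (median logFC 1.03). They are described by kind of protein, a division made after the calls were seen. The basement membrane genes Nid1 (144, 239 and 178 CPM, then 878, 998, 943 and 1002 CPM, logFC 2.35 ± 0.36, FDR 5.2e-05), Lama4 (logFC 2.09 ± 0.20, FDR 1.4e-06), Col15a1 (logFC 2.21 ± 0.35, FDR 6.2e-05) and Col18a1 (logFC 1.68 ± 0.31, FDR 0.00027) were higher, as were Col4a1, which lost the call without estrus 1 or 4, and Col4a2, while the laminin genes Lamb1 (logFC 0.17 ± 0.16, FDR 0.393) and Lamc1 (logFC 0.53 ± 0.17, FDR 0.0129) were not called. The wound matrix genes Fn1 (logFC 1.97 ± 0.35, FDR 0.00017), Tnc (logFC 2.54 ± 0.52, FDR 0.00059) and Postn (logFC 2.56 ± 0.34, FDR 1.3e-05) rose as well. Among fibrillar collagens, Col5a2 rose (logFC 1.13 ± 0.19, FDR 0.00012), and Col1a1 (logFC -0.48 ± 0.53, FDR 0.467), Col1a2 (logFC -0.14 ± 0.44, FDR 0.821), Col3a1 (logFC 0.86 ± 0.50, FDR 0.16) and Col5a1 (logFC -0.14 ± 0.31, FDR 0.73) did not pass the test. Col6a3 (logFC -1.48 ± 0.60, FDR 0.0432), elastin, Eln (logFC -0.93 ± 0.29, FDR 0.0114), and the collagen crosslinking enzyme Lox (logFC -0.80 ± 0.28, FDR 0.0239) were lower. Col6a3 lost the call without any library other than SVX 1, Lox without SVX 3 or estrus 2, and Eln without estrus 2, and upper quartile scaling ended the calls of Col6a3 and Lox. Among 17 tested proteases and inhibitors, 9 were higher and 2 lower. Mmp2, a gelatinase, was at 58.8 to 101 CPM and 383 to 450.2 CPM (logFC 2.38 ± 0.33, FDR 2e-05), Adamts16 at 0.594 to 1.52 and 34.96 to 48.9 CPM (logFC 5.52 ± 0.70, FDR 9.2e-06) and the inhibitor Timp3 at 94.4 to 122 and 282 to 322 CPM (logFC 1.39 ± 0.19, FDR 2.1e-05). The epithelial protease Mmp7 fell, with 9.03, 0.157, 0.219 and 2.15 CPM in the SVX libraries against 49.1 to 94.8 CPM at estrus (logFC -4.52 ± 1.79, FDR 0.0398). SVX 1 was the highest of the 4 for Mmp7, whose logFC without it was -6.27 and whose call was lost without any one of SVX 2, 3 and 4 or of the 3 estrus libraries.

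Channels of the luminal epithelium that carry ions or water mostly fell, with 3 of 12 tested members higher and 7 lower. Cftr, the chloride channel that drives fluid secretion, was at 424, 379 and 429.6 CPM at estrus and at 29.8, 4.72, 3.29 and 3.51 CPM in the SVX libraries (logFC -5.32 ± 1.51, FDR 0.00653). The water channel Aqp5 was at 147, 135 and 132 CPM and 20.5, 4.48, 6.22 and 13.4 CPM (logFC -3.63 ± 0.74, FDR 0.00058), and Aqp8 (logFC -2.80 ± 0.67, FDR 0.00203) and Aqp4 (logFC -4.29 ± 0.94, FDR 0.00096) were lower too. SVX 1 was the highest of the 4 SVX libraries in Cftr, Aqp4, Aqp5 and Aqp8, and without it the logFC was -6.74 for Cftr and -3.50 for Aqp8. Scnn1a, the alpha subunit of the sodium channel ENaC, which absorbs fluid, rose from 1.78, 2.298 and 2.199 CPM to 7.32, 5.82, 5.92 and 6.305 CPM (logFC 1.59 ± 0.34, FDR 0.00073), while the beta subunit gene Scnn1b overlapped (logFC 0.05 ± 0.30, FDR 0.914). The intracellular water channel gene Aqp11 (logFC 2.30 ± 0.29, FDR 9e-06) and the anion exchanger gene Slc26a6 (logFC 1.81 ± 0.28, FDR 5.3e-05) rose.

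Of 22 cytokines and sensors that have been studied after contact with semen, 13 were tested, and 4 were higher and 5 lower. The genes Csf2, Il6, Tnf, Cxcl1, Cxcl2, Ccl2, Ccl3, Ccl20 and Il10 were under the minimum. The growth factor genes Tgfb1 (5.83, 8.97 and 6.29 CPM, then 18.2, 14.1, 17.7 and 16.3 CPM, logFC 1.23 ± 0.21, FDR 0.00012) and Tgfb2 (logFC 0.75 ± 0.17, FDR 0.00159) rose, as did the adaptor Myd88 (logFC 1.23 ± 0.27, FDR 0.00116) and the chemokine Ccl5 (logFC 1.55 ± 0.42, FDR 0.00447). The bacterial sensors Tlr4 (126, 123 and 118 CPM, then 48.6, 43.2, 44.5 and 47.4 CPM, logFC -1.41 ± 0.23, FDR 9.4e-05) and Tlr2 (logFC -1.74 ± 0.38, FDR 0.00107) fell. Il1a was at 22.2, 39.2 and 30.5 CPM and 1.56, 0.393, 0.658 and 0.716 CPM (logFC -5.19 ± 1.76, FDR 0.0185), and Csf3 at 14.97 to 15.6 and 3.12 to 4.61 CPM (logFC -1.94 ± 0.75, FDR 0.0357). Il1a lost the call with limma-voom (FDR of 0.082), and Csf3 lost it when any single library was left out (0.0584 to 0.0761) and with upper quartile scaling (0.0517). Without SVX 1, 3 genes were lower, Csf3 and Lif losing the call, and 3 were lower also without SVX 2, estrus 1 or estrus 4.

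Interferon-stimulated genes were lower. Of 16 tested members, 12 were lower and none higher (median logFC -1.17). Mx1, an antiviral GTPase, was at 125, 90.9 and 111 CPM at estrus and at 6.15, 6.29, 6.14 and 5.37 CPM in the SVX libraries (logFC -4.18 ± 0.77, FDR 0.00023). Oas2, which makes the activator of RNase L, was at 317, 233 and 317 CPM and 33.02, 38.1, 34.4 and 43.8 CPM (logFC -2.95 ± 0.47, FDR 7.3e-05). Ifit1, which binds foreign RNA, was at 91.3, 56.7 and 82.2 CPM and 17.99, 26.3, 26.7 and 25.4 CPM (logFC -1.67 ± 0.40, FDR 0.00217). The SVX libraries lay together in these genes, with SVX 1 no higher than the rest. Ifit3 (logFC -1.59 ± 0.49, FDR 0.0107), the ubiquitin-like modifier gene Isg15 (logFC -1.55 ± 0.33, FDR 0.00091) and Irf7, the master regulator of interferon production (logFC -1.78 ± 0.33, FDR 0.00026), fell as well. Rsad2 (logFC -0.81 ± 0.34, FDR 0.0529) missed the FDR cutoff, and Ifit2 (logFC 0.19 ± 0.21, FDR 0.478) and Gbp2 (logFC -0.10 ± 0.35, FDR 0.836) overlapped between the groups.

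The promoters of Ifit1, Ifit3 and Isg15 are shown. Each holds more than 1 copy of the core of the interferon-stimulated response element, as does that of Bst2, which is not shown. The core is TTTC, any 2 bases and TTTC again (GAAA, any 2 bases and GAAA on the other strand), given in capitals. The 200 bases before each start were taken from RefSeq on GRCm38.p6 in the direction of the gene, at chr19:34640689-34640888 and chr19:34583329-34583528 on the plus strand and chr4:156200819-156201018 on the minus strand.
Ifit1: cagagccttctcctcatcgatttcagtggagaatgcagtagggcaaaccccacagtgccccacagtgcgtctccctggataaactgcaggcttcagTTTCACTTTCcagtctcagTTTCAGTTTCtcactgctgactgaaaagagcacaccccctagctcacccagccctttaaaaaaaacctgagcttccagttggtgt
Ifit3: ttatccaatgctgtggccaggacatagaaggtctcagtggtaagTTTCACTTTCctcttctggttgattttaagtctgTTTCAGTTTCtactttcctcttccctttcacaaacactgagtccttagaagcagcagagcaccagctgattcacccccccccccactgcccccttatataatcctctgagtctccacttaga
Isg15: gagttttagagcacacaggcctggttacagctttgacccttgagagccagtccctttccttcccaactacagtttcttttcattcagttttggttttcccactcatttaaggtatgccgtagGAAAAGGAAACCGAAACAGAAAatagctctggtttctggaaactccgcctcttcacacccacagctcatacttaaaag
Ifit1 and Ifit3 hold 2 copies each and Isg15 holds 3 overlapping copies, read on the other strand. On either strand, the core was found in 6 of the 11 members with a promoter entry (Bst2, Gbp2, Ifit1, Ifit3, Isg15 and Rsad2) and in 2.27% of all 32851 promoters. Gbp2 and Rsad2 hold it and were not called lower.

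Cholesterol synthesis was lower along nearly all of the pathway. Of 18 tested members, 16 were lower and 1 was higher (median logFC -2.21). Hmgcs1, which makes the HMG-CoA that feeds the pathway, was at 292, 146 and 211 CPM at estrus and at 68.1, 41.3, 43.2 and 40.4 CPM in the SVX libraries (logFC -2.16 ± 0.47, FDR 0.00089). Sqle, the enzyme that oxidizes squalene, was at 131, 75.7 and 92.2 CPM and 31.8, 17.1, 17.3 and 17.2 CPM (logFC -2.26 ± 0.54, FDR 0.00211). Idi1, an enzyme of the isoprenoid steps, was at 29.01, 13.8 and 19.7 CPM and 4.05, 2.202, 1.76 and 1.07 CPM (logFC -3.20 ± 0.71, FDR 0.00106). The SVX libraries were all below the estrus libraries in these genes. The synthases Fdps (logFC -2.35 ± 0.57, FDR 0.00227) and Lss (logFC -1.57 ± 0.31, FDR 0.00038), the regulator Insig1 (logFC -2.28 ± 0.47, FDR 0.00063) and the transcription factor Srebf2 (logFC -1.51 ± 0.25, FDR 0.00011) fell as well. Dhcr7, which acts late in the pathway, overlapped (logFC -0.16 ± 0.17, FDR 0.434). All 16 calls were kept in every alternative run. The 200 bases before the start of Hmgcs1 (chr13:119690151-119690350, plus strand, RefSeq on GRCm38.p6) hold a sterol regulatory element core, TCACCCCA, in capitals, 137 to 130 bases before the start.
Hmgcs1: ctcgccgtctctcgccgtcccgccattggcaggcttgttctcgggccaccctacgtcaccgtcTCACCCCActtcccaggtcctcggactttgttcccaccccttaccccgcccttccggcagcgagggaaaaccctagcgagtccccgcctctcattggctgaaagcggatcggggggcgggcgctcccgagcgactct
This core (TGGGGTGA on the other strand) was found in 2 of the 11 members with an entry, Hmgcs1 and Srebf2, and in 1.06% of all promoters.

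The glucose transporters changed in opposite directions. Slc2a3 was at 13.7, 17.2 and 17.8 CPM at estrus and at 307, 470.1, 484 and 396 CPM in the SVX libraries (logFC 4.67 ± 0.42, FDR 9.9e-07). Slc2a1 was at 98.9, 82.5 and 80.6 CPM and 35.7, 30.2, 24.1 and 30.02 CPM (logFC -1.54 ± 0.43, FDR 0.00604), and the insulin-responsive transporter Slc2a4 was also lower (logFC -2.38 ± 0.44, FDR 0.00024). The groups did not overlap for either of the first genes. Of 15 tested genes of glucose uptake and glycolysis, 2 were higher and 10 lower (median logFC -1.33). The other higher gene, the transporter Slc2a8 (logFC 0.64 ± 0.17, FDR 0.00366), lost the call without SVX 4, estrus 1 or estrus 4. The lower ones included Hk2 (logFC -1.48 ± 0.38, FDR 0.00332), Pfkl (logFC -1.33 ± 0.21, FDR 5.5e-05), Pgk1 (logFC -1.81 ± 0.32, FDR 0.00017) and Ldha (logFC -1.58 ± 0.44, FDR 0.00621). Gapdh was lower (logFC -0.96 ± 0.18, FDR 0.00026), and its many processed copies make its count uncertain.

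Chaperones of the endoplasmic reticulum were lower in 8 of 15 genes and higher in none (median logFC -0.91). Hspa5, the main chaperone of this compartment, was at 1189, 956 and 1213 CPM at estrus and at 594, 415, 465 and 479.95 CPM in the SVX libraries (logFC -1.20 ± 0.43, FDR 0.025), and Sdf2l1 (logFC -1.57 ± 0.30, FDR 0.00029) and Creld2 (logFC -1.18 ± 0.25, FDR 0.00078) fell. SVX 1 was the highest of the 4 for Hspa5, and without it 10 members were lower, against 5 without estrus 4. Hspa5 lost the call when any other library except estrus 2 was left out, and so did Calr (logFC -1.05 ± 0.41, FDR 0.0395), a calcium-binding chaperone gene. Both lost it with limma-voom (FDR of 0.0574 and 0.0854), and Calr also with upper quartile scaling (0.0621). The stress transcription factor Ddit3 overlapped (logFC 0.20 ± 0.14, FDR 0.228).

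Proliferation genes mostly overlapped between the groups. Of 23 tested members, 3 were lower and none higher (median logFC -0.48). Mki67, which is made in dividing cells, was at 848, 462 and 489 CPM at estrus and at 577, 366, 314 and 315 CPM in the SVX libraries (logFC -0.61 ± 0.37, FDR 0.168). SVX 1 lay within the estrus range, as did most of its values for the Mcm genes. The mitotic genes Ccnb1 (logFC -1.39 ± 0.43, FDR 0.0115), Ccnb2 (logFC -1.11 ± 0.35, FDR 0.0122) and Bub1 (logFC -1.12 ± 0.39, FDR 0.0231) were lower. Without SVX 1, 7 members were lower, and without estrus 1 none of these 3 kept the call. Bub1 also lost it without SVX 2, 3 or 4 (FDR of 0.052, 0.0605 and 0.0652).

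Immediate early and heat shock genes were split, with 4 of 13 higher and 5 lower. Egr1 (11.4, 16.2 and 17.9 CPM, then 33.6, 45.2, 81.04 and 52.4 CPM, logFC 1.81 ± 0.44, FDR 0.00216), Fosb (logFC 1.98 ± 0.48, FDR 0.0022) and Nr4a1 (logFC 1.56 ± 0.42, FDR 0.00465) rose, and Fos (78.2, 62.6 and 74.7 CPM, then 18.7, 19.9, 29.99 and 18.2 CPM, logFC -1.73 ± 0.36, FDR 0.00076) and Ier3 (logFC -2.41 ± 0.62, FDR 0.00352) fell. The heat shock gene Hspa1b fell from 159.7, 140.2 and 168 CPM to 19.9, 26.97, 17.6 and 16.1 CPM (logFC -2.96 ± 0.40, FDR 1.7e-05), and reads may be split between it and its near-copy Hspa1a.

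The cell type markers moved with these results. Of 10 epithelial markers, 8 were lower and none higher (median logFC -2.48), and their summed level was 4899 to 6581 CPM at estrus and 873 to 1224 CPM in the SVX libraries. Epcam, an adhesion molecule of all epithelia, was at 679, 466 and 589 CPM and 135, 104, 87.6 and 94.6 CPM (logFC -2.46 ± 0.59, FDR 0.00195), and Krt7 fell more on the logFC scale (logFC -4.35 ± 0.94, FDR 0.00088). The tight junction genes Cldn3 (logFC -0.07 ± 0.28, FDR 0.858) and Cldn4 (logFC -0.25 ± 0.33, FDR 0.552) did not pass the test. Of 8 stromal markers, 6 were higher and none lower, with summed levels of 2311 to 2877 CPM and 3281 to 3645 CPM. Pdgfra, a growth factor receptor of fibroblasts, was at 170.5, 347 and 209.9 CPM and 646, 778, 753 and 762 CPM (logFC 1.60 ± 0.29, FDR 0.00023), while Dcn, which encodes decorin, overlapped (logFC -0.06 ± 0.40, FDR 0.922).

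All 10 endothelial markers were higher (median logFC 1.92), among them Cdh5, the cadherin of endothelial junctions, at 40.01, 57.7 and 43.1 CPM and 252, 295, 278 and 309 CPM (logFC 2.59 ± 0.29, FDR 3.8e-06). Of 10 smooth muscle markers, 2 were higher, and the summed level was 487 to 978 CPM at estrus and 998 to 1472 CPM in the SVX libraries, with Acta2 (logFC 0.49 ± 0.41, FDR 0.329) and Myh11 (logFC 0.69 ± 0.57, FDR 0.322) overlapping. The 5 red blood cell genes tested were higher, with a summed level of 27.5 to 39.5 CPM and 75.8 to 86.05 CPM. Of these, Alas2, the first enzyme of heme synthesis in red cells (logFC 1.05 ± 0.42, FDR 0.0432), lost the call when any single library was left out, and without estrus 1 only 3 of the 5 were called. Globin genes are near-identical copies between which reads can be split. The part of these cell types in the results above was not tested.

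Markers of several immune cells rose. In the macrophage list, 8 of 10 tested genes were higher and 1 lower. The complement gene C1qa was at 18.8, 30.9 and 22.3 CPM at estrus and at 45.2, 48.6, 58.7 and 51.7 CPM in the SVX libraries (logFC 1.09 ± 0.17, FDR 6.7e-05), Lyz2, lysozyme, rose by more (logFC 1.79 ± 0.32, FDR 0.00019), and the lysosomal marker Cd68 fell (logFC -1.71 ± 0.42, FDR 0.00243). In the T and NK cell list, 11 of 12 tested genes were higher, with a median logFC of 1.72. Gzmb, granzyme B, was at 3.03, 9.94 and 5.84 CPM and 37.9, 41.7, 35.98 and 44.6 CPM (logFC 2.66 ± 0.39, FDR 3.4e-05), and Ncr1, the NK receptor NKp46, was at 1.25, 5.21 and 2.81 CPM and 9.81, 13.1, 15.7 and 18.8 CPM (logFC 2.20 ± 0.40, FDR 0.00021). The groups did not overlap for Gzmb and Ncr1. The T cell receptor subunit Cd3e stayed low (0.178 to 0.574 and 0.512 to 1.18 CPM, logFC 1.23 ± 0.51, FDR 0.0454) and overlapped. It lost the call without SVX 1, 2 or 4 and without estrus 1 or 4, and Gzma (logFC 1.34 ± 0.55, FDR 0.0469) without any library other than estrus 4. The plasma cell genes Jchain (logFC 1.74 ± 0.64, FDR 0.0275) and Igha (logFC 1.59 ± 0.59, FDR 0.0301) were called higher with overlapping libraries, and both lost the call without SVX 1 or 2 and without estrus 1 or 4. With limma-voom, Cd3e, Gzma and Jchain were not called (FDR of 0.255, 0.14 and 0.0859). Without SVX 1, 1 of 4 B and plasma cell genes, in place of 3, was higher. The fourth, the B cell receptor subunit gene Cd79b, was lower (9.93, 6.64 and 6.596 CPM at estrus, 1.09, 0.236, 1.32 and 0.573 CPM in the SVX libraries, logFC -3.25 ± 0.62, FDR 0.0003). Of 10 neutrophil markers, 3 were tested. Ly6g was lower (11.3, 7.04 and 9.33 CPM and then 0.234, 0.236, 0.146 and 0.215 CPM, logFC -5.42 ± 0.96, FDR 0.00015), Csf3r was higher (logFC 1.49 ± 0.44, FDR 0.00805) but lost the call with limma-voom (FDR of 0.105), and the granule genes S100a8 and S100a9 were under the minimum. Of 4 tested markers of eosinophils, basophils and mast cells, 2 were lower, 1 was higher (logFC 1.86) and 1, Ccr3, overlapped (logFC 0.25 ± 0.43, FDR 0.657). The eosinophil and basophil receptors Il5ra (logFC -5.77 ± 0.73, FDR 9.3e-06) and Cd200r3 (logFC -6.92 ± 1.24, FDR 0.00018) fell to near the counting limit, and Siglecf and Epx were under the minimum.

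Within the SVX set, SVX 1 differed most from the others. Over 12167 genes with a mean of at least 10 CPM in the SVX libraries, SVX 1 was the library farthest from the median of the 4 in 50.7%. Among the 100 genes with the largest standard deviation (SD) of log2 CPM (0.6 to 2.65, against a median of 0.109 over all), it was the farthest in 83, the highest library in 78 and the lowest in 12. Of these 100 genes, 45 were called lower than at estrus, 21 higher and 34 neither. The median SD over all tested genes was 0.135 in the SVX set and 0.0939 without SVX 1, against 0.201 in the intact-mated and 0.134 in the estrus libraries. These are descriptions with no test, since the genes were chosen by the spread itself.

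Among the 10 genes with the largest SD, SVX 1 and 4 both lay above SVX 2 and 3 in all but Ltf. Atp6v0d2 was at 51.9, 1.49, 1.46 and 26.4 CPM in the SVX libraries (logFC 6.75 ± 1.97, FDR 0.00746, 5.69 without SVX 1), Prss28, Prss29 and Cyp26a1 had the same order of high and low libraries as given above, and Depp1, an autophagy regulator, was at 35.6, 2.12, 2.999 and 24.6 CPM. This order was found in 41 of the 100 most variable genes and in 16.2% of the 12167. Depp1 did not pass the test against estrus (logFC 1.76 ± 1.19, FDR 0.222). In other genes SVX 1 was far above each of the other 3 libraries. Inhbb, a subunit of activin and inhibin, was at 57.6, 3.303, 3.14 and 6.09 CPM against 131 to 147 CPM at estrus (logFC -2.96 ± 1.48, FDR 0.0993), and Ltf, given above, was of this kind. For Gjb2, a gap junction gene (48.6, 2.36, 2.27 and 5.52 CPM, against 203 to 239 CPM at estrus, logFC -3.95 ± 1.29, FDR 0.0156), Wnt7b (29.8, 1.02, 1.39 and 11.8 CPM, logFC -2.21 ± 1.07, FDR 0.0882) and Prap1 (36.4, 1.42, 1.39 and 15.05 CPM, logFC -4.62 ± 1.92, FDR 0.0502), SVX 1 was the highest and SVX 4 the next. Without SVX 1 the logFC was -6.06 for Gjb2, which kept the call (FDR of 0.00207), -5.02 for Inhbb, -3.42 for Wnt7b and -5.79 for Prap1, and the last 3 then passed the test (FDR of 0.0198, 0.0201 and 0.0437). Atp6v0d2 also set 1 intact-mated library apart, library 3 (intact-mated 1.29, 1.07, 51.7 and 2.1003 CPM), as did Depp1 (2.57, 2.96, 43.9 and 2.24 CPM). Prss28 (6.66, 4.03, 108 and 0.490 CPM) and Cyp26a1 (3.25, 4.16, 103 and 1.96 CPM) were likewise far higher in intact-mated library 3. The same held for Prss29 (11.04, 6.995, 186 and 0.980 CPM). For Prap1, Gjb2, Inhbb and Ltf the highest intact-mated library was 1 or 2.

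**Figure D5:**
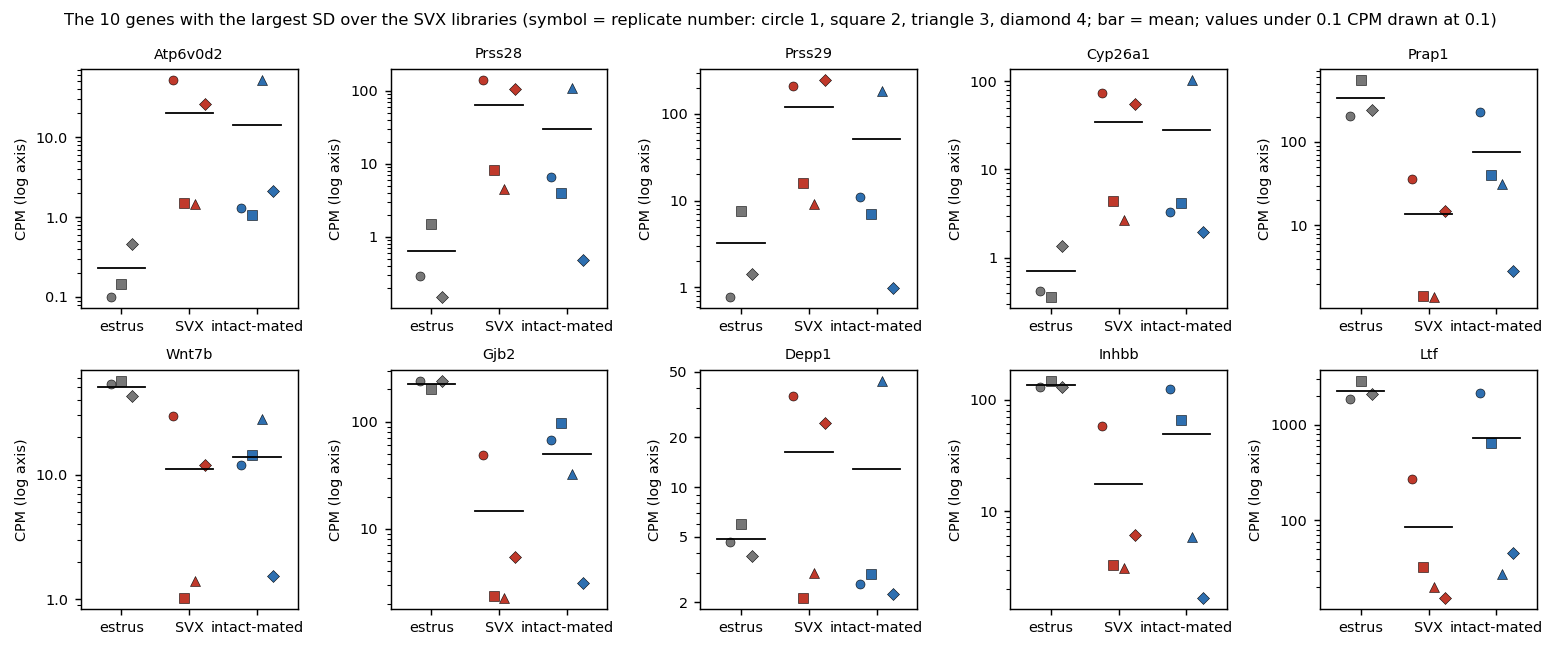
CPM (log axis) in each estrus, SVX and intact-mated library of the 10 genes with the largest SD of log2 CPM over the SVX libraries, with the symbol giving the replicate number and the bar the group mean. SVX 1 and 4 lie above SVX 2 and 3 in 9 of the 10 panels, for example at 139 and 106 CPM against 8.10 and 4.46 CPM for Prss28, and Ltf is high in SVX 1 alone (273 CPM).

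The SVX set was also compared directly with the intact-mated libraries, which asks whether the endometrium differs between these groups at the same time after mating. No gene passed both cutoffs in edgeR (0% of 17222, smallest FDR of 1), and 749 genes (4.35%) had an unadjusted p of 0.05 or less. Limma-voom also called none, with 295 genes at that p. DESeq2 called 3 genes lower in the SVX set, Sprr1a, Gm1965 and Apobec2 (smallest FDR of 0.0403), the last a deaminase family member named after its value was seen. With VAS 2 and 3 left out, edgeR again called none (smallest FDR of 0.52). The median standard error was then 0.14 in place of 0.179, and 1014 genes were at that p. A p that misses the threshold does not show that the groups are alike, and the intact-mated libraries spread widely. For Ltf they were at 2157, 643, 27.4 and 45.3 CPM, so that library 1 lay within the estrus range, library 2 below it and libraries 3 and 4 within the SVX range (logFC -3.07 ± 1.60, unadjusted p 0.0731). C3 (3989, 1445, 129 and 169.7 CPM, logFC -3.10 ± 1.15, unadjusted p 0.0156), Muc4 (1162, 613, 13.97 and 8.89 CPM, logFC -4.50 ± 1.84, unadjusted p 0.0262) and Mx1 (46.7, 52.7, 4.39 and 5.18 CPM, logFC -2.18 ± 0.70, unadjusted p 0.00656) were likewise higher in libraries 1 and 2 than in any SVX library, with libraries 3 and 4 close to the SVX set.

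For other genes the standard error of the difference was smaller. Ihh (logFC 0.07 ± 0.37, unadjusted p 0.854), Gli1 (logFC 0.16 ± 0.25, unadjusted p 0.529), Hoxa10 (logFC 0.27 ± 0.27, unadjusted p 0.326), Tek (logFC 0.30 ± 0.21, unadjusted p 0.165) and Fst (logFC 0.39 ± 0.34, unadjusted p 0.264) differed between the sets by 0.07 to 0.39 on the logFC scale, with standard errors of 0.21 to 0.37. Cd3e was at 1.01, 1.18, 0.512 and 1.003 CPM in the SVX libraries and at 2.57, 2.84, 2.396 and 3.57 CPM in the intact-mated libraries (logFC -1.61 ± 0.43, unadjusted p 0.00156, FDR of 1), and no SVX library reached an intact-mated one. Cd3g (logFC -0.92 ± 0.40, unadjusted p 0.0352) and Cd4 (logFC -0.82 ± 0.36, unadjusted p 0.0356) were lower in the same direction, while Klrb1c, an NK receptor gene, was at 7.17 to 11.3 CPM against 4.24 to 7.13 CPM (logFC 0.69 ± 0.30, unadjusted p 0.0344). These were named after their values were seen, and over the 12 tested genes of the T and NK cell list the median difference was 0.18. None of these passed the FDR cutoff.

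Against the shared estrus libraries, the values of each set stand side by side as follows, and no overlap between the comparisons is given because they share those libraries. Of all 17222 tested genes, 33.6% were called in the intact-mated set (20.9% higher and 12.7% lower) and 41.6% in the SVX set. The estrogen response list had 10 lower members in the SVX set (median logFC -4.92) and 2 in the intact-mated set (median -1.96). For cholesterol synthesis these values were 16 (-2.21) and 12 (-1.21), and for interferon-stimulated genes 12 (-1.17) and 11 (-0.85). The epithelial markers gave 8 (-2.48) and 6 (-1.51). Among lists that rose, the vascular list had 17 higher members in both (medians 1.71 and 1.44), the progesterone list 10 and 9 (3.79 and 3.44) and the gland list 7 and 5 (3.37 and 2.93). For no list was the difference between the sets tested as a list.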

How the data were processed

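The authors deposited raw read counts per gene for all 19 libraries in 1 table, with exon coordinates and lengths on GRCm38/mm10, and the counts were used as deposited. The submitters' processing notes name FastQC, STAR, featureCounts, limma and edgeR. Libraries were stranded, paired-end total RNA, and the strand setting of the counting is not given in the sources used here, so genes with exons overlapping a gene on the opposite strand (1755 of those called, 24.5%) may hold its reads. Columns were matched to samples by prefix and number, and no column was left unmatched.

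A gene entered the test when 3 or more of the 19 libraries reached 3 CPM. The test was run with edgeR 4.0.16 in R 4.3.3 (TMM scaling, quasi-likelihood test, 1 coefficient per group, all 19 libraries sharing the estimate of spread), with Benjamini-Hochberg adjustment over all 17222 genes. A gene was called at an FDR of 0.05 or less and an absolute logFC of at least 0.58. Contrasts were SVX against estrus, SVX against intact-mated, and intact-mated against estrus. Other tools were limma 3.58.1, DESeq2 1.42.0, Python 3.11.15 and matplotlib 3.10.9. Scripts were tested on simulated data. Intervals of ratios with 3 or fewer counts are exact at 95% and cover counting error only.

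Genes named were the 10 largest rises and falls among called genes with a symbol, no overlap of groups and a mean of at least 10 CPM in the higher group, the 10 genes with the largest SD over the SVX libraries at that mean, and members of the gene lists, of which some are not reported here. The set, its members and the lists were chosen with earlier results of these data known. Alternatives were other scalings, filters, tools, samples and each library left out.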

Additional observations from a re-analysis of the deposited data

Results flagged for a closer look

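In 47 groups of 4 libraries, the gap of 1 library to the nearest other was compared with the range of the group (Dixon's test at 95%), and 8 groups were past the limit. Chance alone flags about 1 in 20 groups where they are independent. Here all groups were the same 4 libraries and some shared genes, so flags can come together. The 8 flagged can therefore not be set against that rate. In 6 of the 8 the library was SVX 1. Its PC1 score of 54.07 lay nearer to the estrus libraries than the scores of the other SVX libraries. Its median log2 CPM was above the other SVX libraries for the estrogen response (6.164), cholesterol synthesis (4.721) and the ER chaperones (6.756), and so was its level of the mucus regulator Clca1 (4.754 log2 CPM). For the markers of mesothelium and fat its median of 2.099 was below those of the other SVX libraries. SVX 4 stood apart in the median of the T and NK cell genes (3.493), and SVX 2 in that of the eosinophil, basophil and mast cell genes (-0.6907).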

How the results depend on the processing

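The direction of every list member and named gene called against estrus held in all alternatives run. The count of 7163 called genes became 6474 to 7311 when each library was left out in turn (3613 to 4010 higher, 2861 to 3301 lower), 8042 with only the 2 groups compared and 7926 without VAS 2 and 3. The lenient filters gave more calls (9182 with none, 8431 at 1 CPM, 8847 with filterByExpr), over more genes tested. Tests of the logFC against the cutoff itself called fewer, 3736 with limma-voom and TREAT (2162 higher, 1574 lower) and 5070 with glmTreat (3041 higher, 2029 lower). Upper quartile scaling moved the median of all genes to 0.16 and gave 4689 higher and 2469 lower genes, raising the share of higher calls from 55.6% to 65.5%. Of the 262 called list members, 209 kept the call in all alternatives with the same cutoffs, and 250 under upper quartile scaling. Tests against the cutoff itself kept 208 of them (glmTreat) and 149 (limma-voom and TREAT).

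Some list counts moved by over 1.5 times. Limma-voom left 5 estrogen response genes lower in place of 10, and upper quartile scaling left 3 of 5 semen-related genes, 1 of 3 matrix genes and 0 of 2 mesothelial genes lower. Proliferation genes went from 3 to 7 lower without SVX 1 and with only the 2 groups compared. With limma-voom and TREAT, among other moves, 4 progesterone genes were higher in place of 10. Interferon-stimulated genes then went from 12 to 5 lower and ER chaperones from 8 to 2 lower. The LIF, EGF and prostaglandin list went from 7 to 1 higher, macrophage genes from 8 to 3 and red blood cell genes from 5 to 0.

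For SVX against intact-mated, every library left out gave 0 genes, and DESeq2 gave 3 where edgeR gave 0. The 749 genes at an unadjusted p of 0.05 or less became 1232 with only the 2 groups and 1014 without VAS 2 and 3. They became 257 and 308 without intact-mated 1 and 2, 1595 and 1328 without intact-mated 3 and 4, 922 without SVX 1, and 412, 364 and 416 without SVX 2, 3 and 4.

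Estrus and SVX libraries share the replicate numbers 1, 2 and 4. The deviations of same-numbered libraries correlated at 0.278, -0.00181 and 0.0749, and those of other pairs at -0.216 to 0.169. Not every library correlated best with its own number. So few libraries cannot show whether a number marks a shared batch, and the main fit had no replicate block. With the replicate block, 6923 genes were called (3897 higher, 3026 lower), 6873 of them shared with the fit without it. Of the called genes described with a test, Calr, Lif, Lox and Prss29 were not called with the block (FDR of 0.062, 0.0678, 0.0544 and 0.0667), and SVX against intact-mated gave 0 with 784 at an unadjusted p of 0.05 or less. The depth of the SVX libraries limits genes under about 0.236 CPM, where 3 counts cannot be told from 0.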
